A study of Mus musculus with 15 samples.

Results

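Collagens are the triple-helical proteins of the extracellular matrix, and each collagen type is built from 1 or more alpha chains with a gene of their own. The genes described here are the 39 mouse genes whose symbol has the form of a collagen alpha chain (Col, the type number, a, the chain number) and which had at least 10 counts summed over all 15 libraries, out of 55571 gene rows. The other 5 of the 44 symbols of that form, Col26a1, Col4a3, Col4a5, Col4a6 and Col6a5, had 5, 3, 2, 0 and 5 counts and are left out. By class the members are 11 fibrillar chain genes, 3 type IV genes of basement membranes, 5 type VI genes, 2 type VIII genes and 18 others.

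The libraries are bulk RNA sequencing of E0771, a mouse mammary carcinoma cell line, without T cell coculture. Each of 5 groups had 3 libraries: cells with the Malt1 form labelled PD (Malt1_PD), cells with the substitution forms Malt1_V87R and Malt1_L88D, cells with wild-type Malt1 (Malt1_WT), and cells with an empty vector. MALT1 is a paracaspase, a protease that also serves as a scaffold upstream of NF-kB. The meaning of PD is not given in the labels, and the counts taken for it are in columns whose names give a cysteine substitution. All groups are the same parental line, and the sources used here do not say which promoter drives the constructs, whether each line is a pool or 1 clone, or whether replicates are separate cultures. P-values therefore speak only to the spread among these libraries, part or all of which may be technical. A construct's effect and a chance difference between cell lines cannot be told apart.

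Library totals ran from 15471746 to 21458457 counts. Malt1 mRNA averaged 249.8 ± 8.87 CPM (counts per 1000000; SD, n = 3 here and for every group mean) in Malt1_PD, 279 ± 1.35 in Malt1_V87R, 251 ± 6.74 in Malt1_L88D, 202 ± 7.96 in Malt1_WT and 28.1 ± 1.92 CPM with the vector, so every construct group was above the vector. The deposited counts do not read the substitutions. Of the epithelial markers, Krt8, a keratin of simple epithelia, stood between 89.6 and 117 CPM by group and Epcam between 5.66 and 9.74 CPM, while Cdh1, Krt18, Krt5 and Krt14 were under 1 CPM in every group.

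Collagen chains fold in the endoplasmic reticulum, where prolines and lysines are hydroxylated before trimers are secreted. Fibrillar collagens pack into banded fibrils, type IV collagen forms the sheet of basement membranes, type VI collagen forms beaded filaments next to cells, and type VIII collagen forms networks under endothelia and in the eye. In mammary tumours most collagen protein is made by fibroblasts of the stroma, but carcinoma cells also transcribe chain genes of their own.

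Genes for chains of the same collagen type were expressed at unequal levels. Per kilobase of exon, Col6a1 (a chain of type VI collagen) was the highest of the 39 genes in every group, at 169.8 CPM per kb in Malt1_PD, 116 in Malt1_V87R, 115 in Malt1_L88D, 87.5 in Malt1_WT and 162 CPM per kb with the vector. Col4a1, a chain of type IV collagen, came second at 69.3 CPM per kb in Malt1_PD, 90.2 in Malt1_V87R, 91.2 in Malt1_L88D and 96.3 with the vector. In Malt1_WT Col5a3 stood above it, at 76.2 CPM per kb against 63.4. The order per kilobase depends on the exon lengths used. In CPM with the vector, Col4a1 had 718 and Col6a1 709. The genes of classical interstitial collagen were low. Col1a1 was between 11 and 18.3 CPM by group and its partner Col1a2 had 120 counts in all libraries together, at most 0.609 CPM in a group.

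In several types the gene of another chain of the same type was near 0. Col5a2 had 28 counts in total beside the abundant Col5a1 and Col5a3, and Col8a2 had 11 counts beside 8453 of Col8a1. Col4a4 had 9429 counts, while Col4a3 and Col4a5, which code for the chains it is known to pair with, had 3 and 2. In these libraries a total of 3 counts over all 275773884 corresponds to 0.0109 CPM, a limit that covers counting error only. Of the 39 members, 16 reached a mean of 5 CPM in at least 1 group, and these held 99.65% of all collagen counts.

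Summed over all 39 genes, collagen mRNA was lower with wild-type Malt1 than in any other group. The sum was 3613 ± 69.5 CPM in Malt1_PD, 3764 ± 47.9 in Malt1_V87R, 3794 ± 31.3 in Malt1_L88D and 3079 ± 35.8 in Malt1_WT, against 4089 ± 33.0 CPM with the vector, and no library of a construct reached the lowest vector library. Most of the deficit was in 2 classes. The type VI sum was 1342 ± 43.1 CPM in Malt1_PD, 1175 ± 29.7 in Malt1_V87R, 1173 ± 13.1 in Malt1_L88D and 777 ± 10.1 in Malt1_WT, against 1503 ± 23.7 CPM with the vector. The basement membrane sum was 839 ± 14.7 CPM in Malt1_PD, 1046 ± 16.2 in Malt1_V87R, 1057 ± 24.0 in Malt1_L88D and 792 ± 9.69 in Malt1_WT, against 1119 ± 16.4 CPM with the vector.

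The fibrillar sum was lower than with the vector in Malt1_PD and close to it or above in the other groups. It was 957 ± 26.3 CPM in Malt1_PD, 1116 ± 17.3 in Malt1_V87R, 1137 ± 13.8 in Malt1_L88D and 1058 ± 23.2 in Malt1_WT, against 1050.3 ± 9.59 CPM with the vector. The 18 other genes together were 126% of the vector level in Malt1_PD, 102% in Malt1_V87R, 103% in Malt1_L88D and 119% in Malt1_WT. Sums were not tested, and in bulk RNA a change in the number of cells that make a transcript cannot be told apart from a change in RNA per cell.

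**Figure D1:**
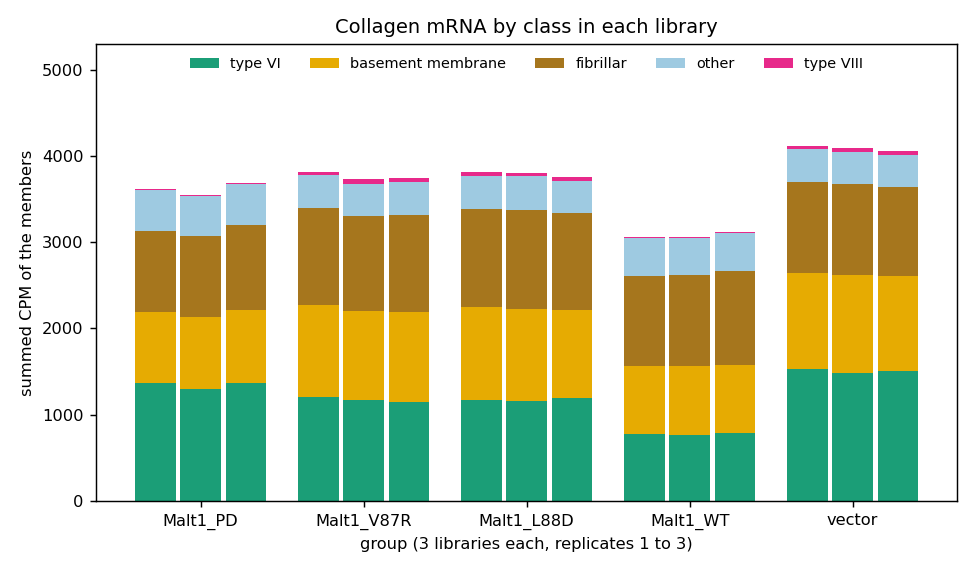
Summed CPM of the 39 collagen chain genes in each of the 15 libraries, stacked by class, with 3 libraries per group on the horizontal axis. The Malt1_WT libraries have the lowest totals, between 3058 and 3121 CPM, and the vector libraries the highest, between 4055 and 4120.4 CPM, with the largest difference in the type VI segment.

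Type VI collagen is assembled from 3 different chains, and all 3 genes fell with wild-type Malt1, while in the mutants some fell and others were not called. Col6a1 (ENSMUSG00000001119.7, GRCm38 chromosome 10, 76708792 to 76726168, minus strand) had 766, 700.5 and 766 CPM in Malt1_PD, 522, 506 and 495 in Malt1_V87R, 499, 499.7 and 508 in Malt1_L88D, 384, 376 and 389 in Malt1_WT, and 734, 686 and 707 CPM with the vector. The Malt1_PD libraries overlapped the vector libraries, the Malt1_V87R and Malt1_L88D libraries lay between, and the Malt1_WT libraries were below all others. Against the vector the log2 fold change was -0.48 ± 0.04 in Malt1_V87R (SE here and below; adjusted p = 7e-11), -0.50 ± 0.04 in Malt1_L88D (adjusted p = 4e-11) and -0.89 ± 0.04 in Malt1_WT (adjusted p = 9.5e-18), by edgeR's quasi-likelihood test with Benjamini-Hochberg adjustment, the test used throughout. In Malt1_PD it was 0.07 ± 0.04 (adjusted p = 0.14), a value that passed the threshold without Malt1_PD replicate 2 (0.12, adjusted p = 0.0078) or without vector replicate 1 (0.11, adjusted p = 0.043).

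Col6a2 codes for the second chain and lies on the same strand of chromosome 10 (76595762 to 76623630). It had 353, 313 and 335 CPM in Malt1_PD, 255, 239 and 248 in Malt1_V87R, 239, 224 and 239 in Malt1_L88D, 183, 169.7 and 182 in Malt1_WT, and 359, 348 and 347 CPM with the vector. The Malt1_PD libraries again lay near the vector libraries, the Malt1_V87R and Malt1_L88D libraries below them, and the Malt1_WT libraries below all others. Malt1_V87R fell by 0.51 (adjusted p = 5.2e-10), Malt1_L88D by 0.59 (adjusted p = 2.2e-11) and Malt1_WT by 0.98 (adjusted p = 2.9e-17) on the log2 scale, and Malt1_PD differed from the vector by -0.07 ± 0.04 (adjusted p = 0.17).

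Col6a3 codes for the longest type VI chain and lies on chromosome 1 (90765923 to 90843971, minus strand). It had 249.9, 279 and 263 CPM in Malt1_PD, 428, 429.5 and 402 in Malt1_V87R, 435, 437 and 439.9 in Malt1_L88D, 212, 220.1 and 215 in Malt1_WT, and 435, 447 and 446 CPM with the vector. Here the groups split otherwise: Malt1_PD and Malt1_WT were low, without overlap with the other 3 groups, and Malt1_V87R and Malt1_L88D were not called against the vector (-0.08 and -0.02, adjusted p = 0.22 and 0.79). The log2 fold change against the vector was -0.75 ± 0.04 in Malt1_PD (adjusted p = 1.2e-15) and -1.04 ± 0.04 in Malt1_WT (adjusted p = 5e-19).

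**Figure D2:**
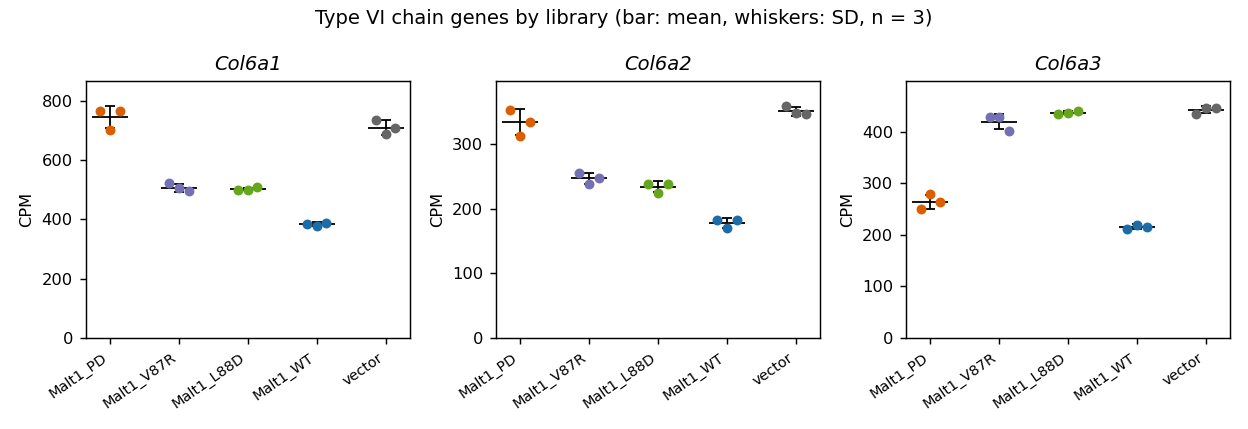
CPM of Col6a1, Col6a2 and Col6a3 in each library, with the group mean as a bar and SD whiskers (n = 3). Malt1_PD sits with the vector for Col6a1 and Col6a2 but near Malt1_WT for Col6a3, whereas Malt1_V87R and Malt1_L88D lie near the vector for Col6a3 and between Malt1_WT and the vector for Col6a1 and Col6a2.

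Set directly against each other, Malt1_PD exceeded Malt1_WT in all 3 genes, by 0.96 ± 0.04 for Col6a1 (adjusted p = 2.5e-17), 0.91 ± 0.04 for Col6a2 (adjusted p = 2.2e-15) and 0.29 ± 0.04 for Col6a3 (adjusted p = 2.6e-06). Against Malt1_V87R, Malt1_PD was higher in Col6a1 (0.55 ± 0.04, adjusted p = 7e-13) and Col6a2 (0.43 ± 0.04, adjusted p = 2e-09) and lower in Col6a3 (-0.67 ± 0.04, adjusted p = 1.8e-14). The per-kilobase ratio of Col6a1 to Col6a3 was accordingly 7.73 ± 0.774 in Malt1_PD, 3.30 ± 0.075 in Malt1_V87R, 3.14 ± 0.0134 in Malt1_L88D, 4.85 ± 0.159 in Malt1_WT and 4.37 ± 0.215 with the vector. That of Col6a1 to Col6a2 lay between 3.84 and 4.24 in the group means. These ratios depend on the lengths used, which merge all annotated exons of a gene and can exceed the transcript made. They were 4380 bases for Col6a1 and 8326 for Col6a2. Before division by length, Col6a1 had 709 and Col6a2 351 CPM with the vector.

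The sequence before the start of Col6a3 is shown because its group pattern differed from that of its partner genes. It was taken from RefSeq's GRCm38.p6 table, as were the others printed here, and covers the 250 bases before the annotated start, chr1:90843972-90844221, minus strand, 5′ to 3′. Capitals in these sequences mark matches on either strand to the GC box (GGGCGG, bound by Sp1), the CCAAT box (CCAAT), the AP-1 site (TGANTCA), the TATA box (TATAAA) or the NF-kB consensus. Col6a3 had none of them in this window:
Col6a3: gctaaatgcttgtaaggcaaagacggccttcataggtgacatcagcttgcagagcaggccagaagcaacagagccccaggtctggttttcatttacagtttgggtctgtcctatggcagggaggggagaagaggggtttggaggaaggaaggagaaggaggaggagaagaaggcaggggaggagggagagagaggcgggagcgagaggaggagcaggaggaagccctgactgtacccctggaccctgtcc
AP-1 matches occur in 6.75% of 32851 such windows over all genes and in 2.86% of the 35 windows found for 32 of the collagen members. That share is 1 window, that of the partner gene Col6a1, with the match at -90 to -84 from its start. The Col6a1 window is not printed. A match describes the letters only.

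Among the fibrillar chains the type V genes moved in opposite directions. Type V collagen sits inside type I fibrils and limits their diameter. Col5a1 (ENSMUSG00000026837.15, chromosome 2, 27886425 to 28039514, plus strand) had 404, 400.5 and 417 CPM in Malt1_PD, 564, 558 and 574 in Malt1_V87R, 574, 576 and 560.3 in Malt1_L88D, 392, 388 and 399.9 in Malt1_WT, and 582, 579.6 and 577 CPM with the vector. Malt1_PD and Malt1_WT stood well below the other groups, at 70.3% and 67.9% of the vector level (log2 fold change -0.51 ± 0.03, adjusted p = 1.5e-13, and -0.56 ± 0.03, adjusted p = 1.3e-14). Malt1_V87R and Malt1_L88D were at 97.6% and 98.4% of it and were not called (adjusted p = 0.55 and 0.69), and Malt1_PD was lower than Malt1_V87R by 0.47 on the log2 scale (adjusted p = 9.1e-13).

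Col5a3 (ENSMUSG00000004098.7, chromosome 9, 20770050 to 20815067, minus strand) codes for the type V chain of restricted tissue distribution. It had 382, 375 and 408 CPM in Malt1_PD, 388, 370.2 and 386 in Malt1_V87R, 394, 404 and 398 in Malt1_L88D, 512, 509 and 535 in Malt1_WT, and 309.8, 302 and 297 CPM with the vector. All 4 construct groups lay above the vector without overlap, and Malt1_WT lay above the 3 mutants. Against the vector the rise was 0.36 ± 0.04 in Malt1_PD (adjusted p = 3.9e-09), 0.33 ± 0.04 in Malt1_V87R (adjusted p = 1.2e-07), 0.40 ± 0.04 in Malt1_L88D (adjusted p = 3.8e-09) and 0.78 ± 0.04 in Malt1_WT (adjusted p = 1.4e-16). Against Malt1_WT the mutants were lower by between 0.38 and 0.44 (adjusted p from 4.2e-11 to 1.2e-09).

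The per-kilobase ratio of Col5a3 to Col5a1 was 1.19 ± 0.0264 in Malt1_PD, 0.841 ± 0.0153 in Malt1_V87R, 0.872 ± 0.0148 in Malt1_L88D, 1.64 ± 0.0206 in Malt1_WT and 0.651 ± 0.0109 with the vector. The 250 bases before the start of Col5a3 (chr9:20815068-20815317, minus strand) are shown as those of a member that was higher in every construct group. They hold 2 GC boxes, written here as the reverse complement CCGCCC, and 1 CCAAT box:
Col5a3: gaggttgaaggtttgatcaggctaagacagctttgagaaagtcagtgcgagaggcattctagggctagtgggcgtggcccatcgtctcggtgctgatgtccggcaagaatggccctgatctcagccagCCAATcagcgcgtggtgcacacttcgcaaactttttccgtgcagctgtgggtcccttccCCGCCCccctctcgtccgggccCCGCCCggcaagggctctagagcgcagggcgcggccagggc

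The other fibrillar genes of at least 5 CPM were less abundant. Col1a1, the main chain of type I collagen, had 13.1, 12.0 and 13 CPM in Malt1_PD, 17.4, 15.4 and 14.2 in Malt1_V87R, 12.6, 15.3 and 15.3 in Malt1_L88D, 12.0, 9.26 and 11.7 in Malt1_WT, and 17.9, 18.2 and 18.9 CPM with the vector. It was lower than the vector in Malt1_PD (-0.53 ± 0.10, adjusted p = 5.8e-05) and Malt1_WT (-0.74 ± 0.10, adjusted p = 4.7e-07). The fall in Malt1_L88D (-0.34 ± 0.10, adjusted p = 0.013) was lost without Malt1_L88D replicate 1 (adjusted p = 0.10) or vector replicate 3 (adjusted p = 0.072), and Malt1_V87R was not called (-0.23 ± 0.09, adjusted p = 0.13).

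Col3a1, the chain of type III collagen of elastic tissues, had 126, 139.7 and 134 CPM in Malt1_PD, 137, 134 and 135 in Malt1_V87R, 142, 133 and 128 in Malt1_L88D, 114, 121 and 122 in Malt1_WT, and 131, 137 and 132 CPM with the vector. All 3 Malt1_WT libraries lay below the vector range by a small amount (log2 fold change -0.16 ± 0.05, adjusted p = 0.0038), and the call was lost without Malt1_WT replicate 1 (adjusted p = 0.054). Col24a1, a minor fibrillar chain, had 10.4, 12.0 and 10.7 CPM in Malt1_PD, 13.2, 12.4 and 11.1 in Malt1_V87R, 12.8, 13 and 13.3 in Malt1_L88D, 9, 11.8 and 11 in Malt1_WT, and 9.93, 11.1 and 9.69 CPM with the vector. Its rise in Malt1_L88D (0.35 ± 0.10, adjusted p = 0.017) was lost without Malt1_L88D replicate 3, vector replicate 1 or vector replicate 3 (adjusted p = 0.055, 0.065 and 0.071).

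The main basement membrane pair, Col4a1 and Col4a2, fell in Malt1_PD and Malt1_WT. The genes are transcribed in opposite directions from starts 21 bases apart. Col4a1 had 508, 519 and 525 CPM in Malt1_PD, 686, 661 and 674 in Malt1_V87R, 692, 689 and 662 in Malt1_L88D, 471, 478 and 470.1 in Malt1_WT, and 716, 735 and 704 CPM with the vector. Malt1_PD and Malt1_WT were far below the rest (-0.47 ± 0.03, adjusted p = 1e-12, in Malt1_PD and -0.60 ± 0.03, adjusted p = 3.5e-15, in Malt1_WT). Malt1_PD was above Malt1_WT by 0.13 ± 0.03 (adjusted p = 0.0054), a call lost when only the 6 libraries compared were fitted (adjusted p = 0.051), and Malt1_V87R and Malt1_L88D were not called against the vector (-0.09 and -0.08, adjusted p = 0.067 and 0.11). Every Malt1_V87R and every Malt1_L88D library of Col4a1 was nevertheless below every vector library. The Malt1_V87R difference was called with the replicate number as a block (adjusted p = 0.036), in DESeq2 (0.039) and in limma-voom (0.042). That of Malt1_L88D was called in no alternative fit (lowest adjusted p = 0.07).

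Col4a2 had 279, 281 and 287 CPM in Malt1_PD, 349, 340.5 and 338 in Malt1_V87R, 353, 347 and 338 in Malt1_L88D, 269, 280 and 271 in Malt1_WT, and 373, 374 and 371 CPM with the vector. It fell by 0.40 in Malt1_PD (adjusted p = 6.8e-11) and by 0.45 in Malt1_WT (adjusted p = 5e-12). The smaller differences in Malt1_V87R (-0.12 ± 0.03, adjusted p = 0.016) and Malt1_L88D (-0.11 ± 0.03, adjusted p = 0.029) did not hold when libraries were left out. That in Malt1_V87R was lost without Malt1_V87R replicate 2 or 3 or vector replicate 1 or 3 (adjusted p from 0.055 to 0.085). That in Malt1_L88D was lost without Malt1_L88D replicate 2 or 3 or any 1 vector library (adjusted p from 0.056 to 0.18).

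Col4a4, a chain of the type IV network of kidney and eye, rose instead. It had 36.7, 38.3 and 41.5 CPM in Malt1_PD, 29.0, 30.5 and 31.0 in Malt1_V87R, 28.6, 33.0 and 30.0 in Malt1_L88D, 43.0, 44.3 and 50.1 in Malt1_WT, and 27.2, 26.8 and 28.6 CPM with the vector. Malt1_PD and Malt1_WT did not overlap the vector (0.49 ± 0.07, adjusted p = 8.6e-07, and 0.73 ± 0.07, adjusted p = 3.9e-10). Malt1_V87R and Malt1_L88D were not called (adjusted p = 0.26 and 0.14). Malt1_PD was lower than Malt1_WT (-0.24 ± 0.07, adjusted p = 0.0099), which was lost without Malt1_WT replicate 3 (adjusted p = 0.10) or Malt1_PD replicate 1 (adjusted p = 0.062).

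Col8a1 (ENSMUSG00000068196.5, chromosome 16, 57624258 to 57754737, minus strand), a short-chain collagen of vessel walls and the cornea, had the largest change of any member of at least 5 CPM. It had 6.15, 7.41 and 5.45 CPM in Malt1_PD, 44.0, 50.3 and 43.0 in Malt1_V87R, 45.1, 40.0 and 44.8 in Malt1_L88D, 6.26, 8.97 and 9.18 in Malt1_WT, and 42.9, 50.3 and 41.9 CPM with the vector. The 5 groups fell into 2 sets with nothing between them. Malt1_PD was at 14.1% of the vector level (-2.83 ± 0.12, adjusted p = 2e-14) and Malt1_WT at 18.2% (-2.46 ± 0.12, adjusted p = 1.1e-13), while Malt1_V87R and Malt1_L88D were at 102% and 96.3% (adjusted p = 0.89 and 0.74).

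Malt1_PD was lower than Malt1_V87R by 2.86 on the log2 scale (adjusted p = 1.9e-14) for Col8a1. Its difference from Malt1_WT, -0.37 ± 0.16, was not called (adjusted p = 0.098) but passed the threshold without Malt1_WT replicate 1 (-0.53, adjusted p = 0.0089), without Malt1_PD replicate 2 (-0.50, adjusted p = 0.024) and in DESeq2 (-0.38, adjusted p = 0.03). The 250 bases before the Col8a1 start (chr16:57754738-57754987, minus strand) are shown because this member changed most among those of at least 5 CPM. They hold 4 GC boxes, all as CCGCCC, against at least 1 in 32.7% of windows over all genes and in 54.3% of the collagen windows:
Col8a1: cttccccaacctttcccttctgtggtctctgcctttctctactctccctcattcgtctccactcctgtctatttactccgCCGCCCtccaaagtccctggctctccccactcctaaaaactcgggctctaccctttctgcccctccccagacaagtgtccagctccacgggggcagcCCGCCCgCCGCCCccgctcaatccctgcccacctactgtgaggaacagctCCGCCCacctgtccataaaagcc
No NF-kB consensus match lies in the 3 windows printed. It occurs in 11.4% of the 35 collagen windows and in 3.9% of all windows, 4 and 1281 of them.

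Col12a1 codes for a fibril-associated collagen that bridges fibrils and had, after Col8a1, the largest fall in Malt1_PD and Malt1_WT among members of at least 5 CPM. It had 2.17, 2.31 and 1.76 CPM in Malt1_PD, 8.31, 8.23 and 7.02 in Malt1_V87R, 7.82, 7.80 and 7.68 in Malt1_L88D, 2.41, 3.16 and 3.21 in Malt1_WT, and 8.96, 9.02 and 9.06 CPM with the vector. Malt1_PD and Malt1_WT again lay apart from the rest (-2.11 ± 0.14, adjusted p = 4.6e-13, and -1.62 ± 0.14, adjusted p = 4.5e-11), and Malt1_V87R and Malt1_L88D were not called (adjusted p = 0.29 and 0.21). Malt1_PD was below Malt1_WT by 0.50 (adjusted p = 0.042), a call lost without Malt1_WT replicate 2 or 3 or Malt1_PD replicate 1 or 3 (adjusted p from 0.077 to 0.18) and in DESeq2 (adjusted p = 0.063).

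Col18a1, a basement membrane proteoglycan that is cleaved to the angiogenesis inhibitor endostatin, rose in the same groups. It had 209, 193 and 211 CPM in Malt1_PD, 98.7, 102 and 106 in Malt1_V87R, 109, 105 and 104 in Malt1_L88D, 207, 195 and 201 in Malt1_WT, and 111, 107 and 109 CPM with the vector. Malt1_PD and Malt1_WT were close to each other (0.02 ± 0.04, adjusted p = 0.73) and far above the vector (0.91 ± 0.04, adjusted p = 1.4e-16, and 0.88 ± 0.04, adjusted p = 1.8e-16), whereas Malt1_V87R and Malt1_L88D were not called (-0.09 and -0.04, adjusted p = 0.18 and 0.58). Slc19a1 on the other strand overlaps Col18a1 and had 75.2 CPM in Malt1_PD, 60.9 in Malt1_V87R, 57.1 in Malt1_L88D, 67.0 in Malt1_WT and 66.7 CPM with the vector. Col4a1 and Col4a2 are also on opposite strands, but they overlap only between their starts, 21 bases apart. The strand setting of the counting is not given in the sources used here, so the part of these values that comes from the partner was not tested.

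Col7a1, the collagen of the anchoring fibrils under epithelia, was higher in all 4 construct groups. It had 76.5, 76.5 and 76.3 CPM in Malt1_PD, 65.2, 60.9 and 66.2 in Malt1_V87R, 64.5, 68.7 and 69.1 in Malt1_L88D, 67.4, 65.9 and 71.7 in Malt1_WT, and 50.3, 52.5 and 50.6 CPM with the vector. No construct library reached down to the vector range, and the rises on the log2 scale were 0.58 in Malt1_PD, 0.33 in Malt1_V87R, 0.40 in Malt1_L88D and 0.42 in Malt1_WT (each ± 0.05, adjusted p from 9.2e-11 to 2.8e-05). Col16a1, another fibril-associated collagen, had 181, 183 and 177 CPM in Malt1_PD, 201, 196 and 200 in Malt1_V87R, 194, 202 and 186 in Malt1_L88D, 162, 164 and 166 in Malt1_WT, and 198, 197 and 195 CPM with the vector. It fell by 0.26 in Malt1_WT (adjusted p = 9.7e-07) and by 0.13 in Malt1_PD (adjusted p = 0.0072), the second of which was lost without Malt1_PD replicate 3 (adjusted p = 0.063).

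**Figure D3:**
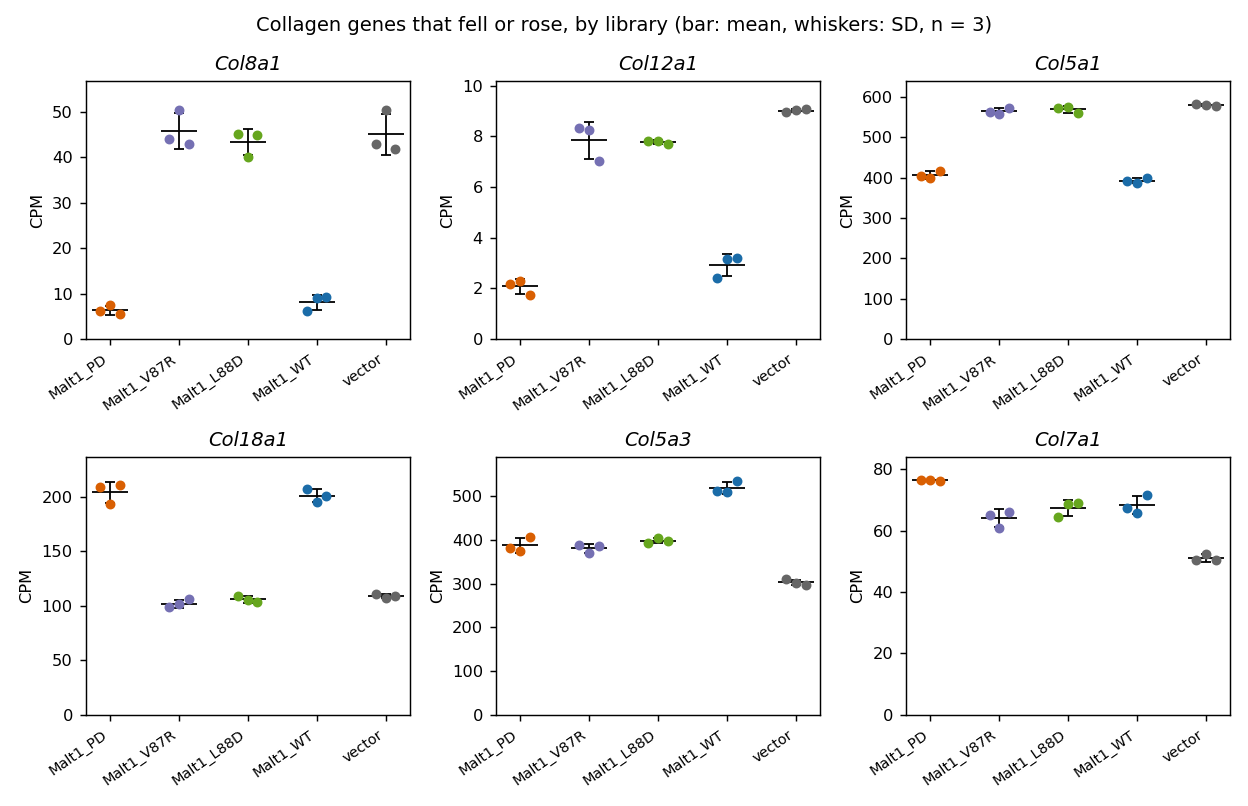
CPM of 6 collagen genes in each library, with the group mean as a bar and SD whiskers (n = 3). Col8a1, Col12a1 and Col5a1 are low and Col18a1 is high in Malt1_PD and Malt1_WT, while Col5a3 and Col7a1 are above the vector in all 4 construct groups.

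The remaining 23 members were low. Of these, 9 passed the expression filter of the test, with group means between 0.122 and 3.51 CPM, and 14 did not, with no group mean above 0.293 CPM. Col25a1, a membrane-bound collagen of neurons, averaged 0.181 ± 0.119 CPM in Malt1_PD, 0.896 ± 0.162 in Malt1_V87R, 1.10 ± 0.266 in Malt1_L88D and 0.122 ± 0.054 in Malt1_WT, against 0.528 ± 0.0653 CPM with the vector. Its fall in Malt1_WT (-2.04 ± 0.57, adjusted p = 0.0031) was called with every 1 library left out. Its fall in Malt1_PD (-1.50, adjusted p = 0.016) was lost without Malt1_PD replicate 2 or 3 or vector replicate 1 (adjusted p from 0.061 to 0.085). Its rise in Malt1_L88D (1.03, adjusted p = 0.048) was lost without Malt1_L88D replicate 1 or 3 or any 1 vector library (adjusted p from 0.094 to 0.17).

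Col9a3, a chain of cartilage type IX collagen, averaged 2.69 ± 0.649 CPM in Malt1_PD, 2.7 ± 0.535 in Malt1_V87R, 2.72 ± 0.12 in Malt1_L88D and 2.98 ± 0.552 in Malt1_WT, against 1.73 ± 0.0774 CPM with the vector. The rise in Malt1_WT (0.78 ± 0.22, adjusted p = 0.0038) was called with every 1 library left out. The calls in Malt1_PD (0.63, adjusted p = 0.02) and Malt1_L88D (0.65, adjusted p = 0.039) were lost, the first without Malt1_PD replicate 2 or 3 (adjusted p = 0.057 and 0.12) and the second without any 1 of the 6 libraries compared (adjusted p from 0.064 to 0.11). In Malt1_V87R the difference of Col9a3 was of the same size (0.64, adjusted p = 0.05 after rounding, not called), and it was called with the replicate number as a block (adjusted p = 0.042) and without Malt1_V87R replicate 1 (0.78, adjusted p = 0.028). Col1a2 was lower in Malt1_WT (-1.98 ± 0.64, adjusted p = 0.0096) on 7 counts in its 3 libraries, a call lost without vector replicate 2 (adjusted p = 0.057). Col2a1, the cartilage fibrillar chain, was lower in Malt1_PD (-0.51, adjusted p = 0.036), a call lost without Malt1_PD replicate 2 or 3 or vector replicate 1 (adjusted p = 0.13, 0.17 and 0.25) and in DESeq2 (adjusted p = 0.062).

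**Figure D4:**
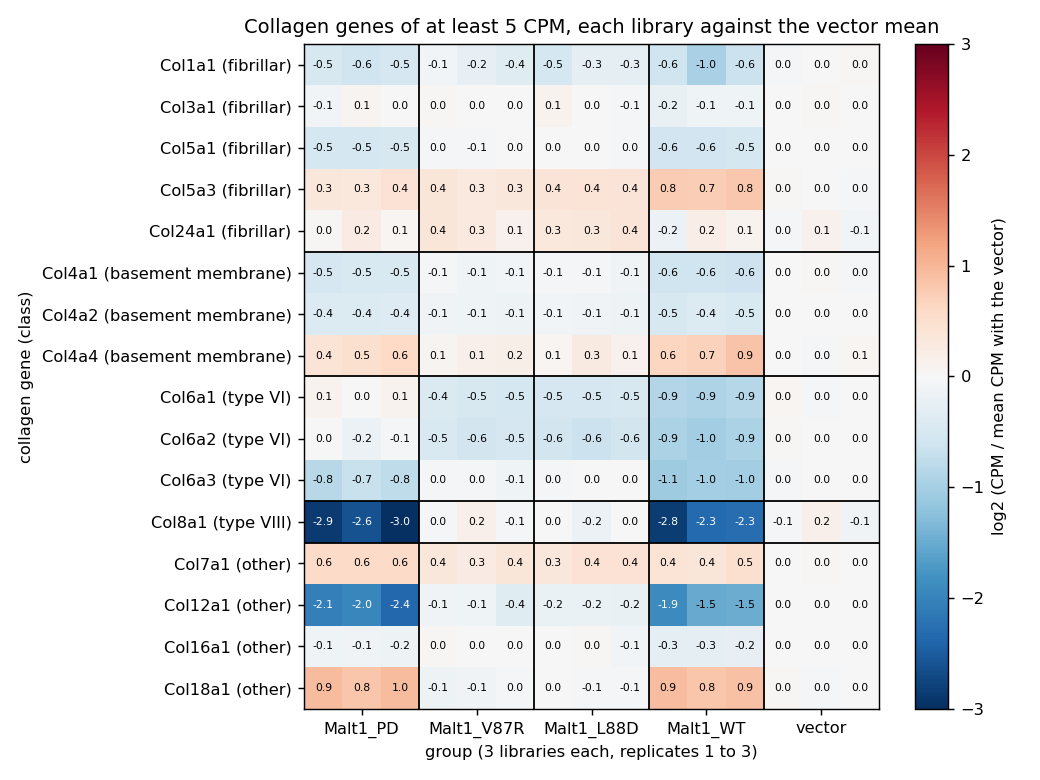
Log2 ratio of each library's CPM to the vector mean for the 16 collagen genes of at least 5 CPM, with libraries in columns by group and genes in rows by class. Blue is lower and red higher than the vector, and the lowest cells are those of Col8a1 and Col12a1 in Malt1_PD and Malt1_WT.

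Counted over the 25 members tested, the 4 constructs differed in how many collagen genes they changed and in how those counts stood to all genes. Calls are easier to reach in abundant genes, and 16 of these members reached 5 CPM in a group. The shares of all genes, here and below, were not matched to the members for expression level. In Malt1_PD against the vector 15 were called, 60.0% of those tested against 44.8% of all 14571 genes, with 5 higher and 10 lower where 22.8% and 22.0% of all genes were higher and lower. In Malt1_V87R 5 were called, 20% against 11.7% of all genes, with Col5a3 and Col7a1 higher and Col6a1, Col6a2 and Col4a2 lower (all genes, 7.01% higher and 4.70% lower). In Malt1_L88D 9 were called, 36.0% against 17.4%, with 5 higher and 4 lower (all genes, 8.96% and 8.43%). Without 1 library the 5 higher became 3 (without Malt1_L88D replicate 1 or vector replicate 2) or 2 (without Malt1_L88D replicate 3, vector replicate 1 or vector replicate 3), and the 4 lower became 2 without vector replicate 3.

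In Malt1_WT against the vector 18 of 25 were called, 72.0% against 54.9% of all genes, with 5 higher and 13 lower where all genes had 27.2% and 27.7%. The median log2 fold change of the members was -0.13 in Malt1_PD, 0.02 in Malt1_V87R, -0.02 in Malt1_L88D and -0.16 in Malt1_WT, beside medians of all genes within 0.01 of 0. The test of any difference among the 5 groups called 19 of the 25 members (76.0%) and 61% of all genes. The members share a cell line and libraries and are too few for more than this description. Comparisons with the vector share its 3 libraries, so likeness between them is not separate evidence.

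**Figure D5:**
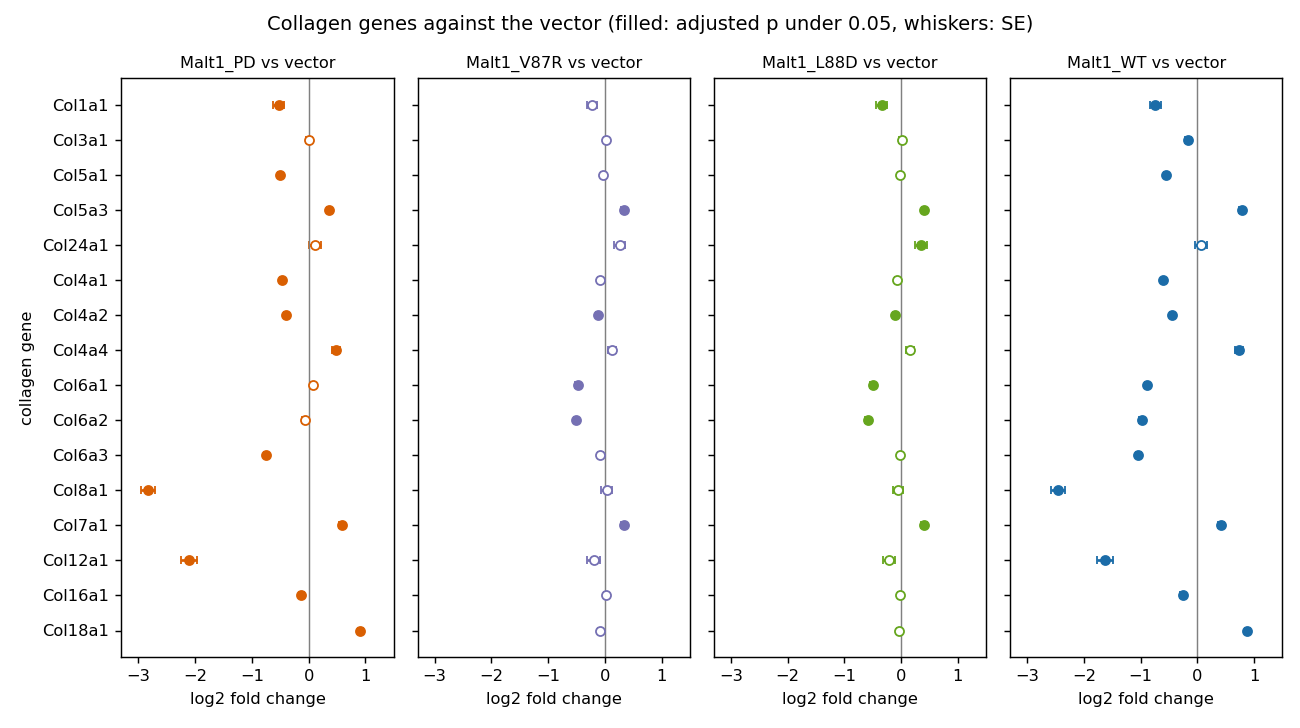
Log2 fold change against the vector for the 16 collagen genes of at least 5 CPM, 1 panel per construct, with SE whiskers and filled points where the adjusted p is under 0.05. Col8a1 and Col12a1 lie far to the left in Malt1_PD and Malt1_WT, and points in Malt1_V87R and Malt1_L88D stay within 0.59 of 0.

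The mutants were also compared with the wild type. In Malt1_PD against Malt1_WT 10 of 25 members were called, 40.0% against 23.3% of all genes. The 7 higher genes were led by Col6a1 and Col6a2, whose values are given above, and the 3 lower genes were Col5a3, Col4a4 and Col12a1 (all genes, 12.6% higher and 10.7% lower). The 7 higher genes became 3 when only the 6 libraries compared were fitted, and the 3 lower genes became 1 without Malt1_WT replicate 3. Over all genes, upper-quartile scaling gave 1365 higher and 1766 lower in this comparison, where the trimmed mean scaling used here gave 1834 higher and 1565 lower.

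In Malt1_V87R against Malt1_WT 17 of 25 members were called, 68.0% against 48.3% of all genes, with 13 higher and 4 lower (all genes, 24.9% and 23.4%). In Malt1_L88D against Malt1_WT it was also 17, 68.0% against 45.1%, with 14 higher and 3 lower (all genes, 22.8% and 22.3%). Col8a1 was 5.6-fold higher in Malt1_V87R and 5.28-fold higher in Malt1_L88D than in Malt1_WT (adjusted p = 1.2e-13 and 2.9e-13), and Col12a1 was 2.67-fold and 2.64-fold higher (adjusted p = 1.1e-09 and 2.2e-09). Col6a3 was 1.95-fold and 2.03-fold higher (adjusted p = 4.7e-18 and 1.5e-18). Col18a1 was at 50.9% and 52.8% of its Malt1_WT level (adjusted p = 2.7e-17 and 1.2e-16).

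In Malt1_PD against Malt1_V87R, and in Malt1_PD against Malt1_L88D, 16 of 25 members were called with 5 higher and 11 lower, 64.0% against 41.5% and 41.4% of all genes. Over all genes 21.1% were higher and 20.4% lower against Malt1_V87R, and 21.4% and 20% against Malt1_L88D. These pairings were added after values had been seen. Col18a1, Col6a1, Col6a2, Col4a4 and Col7a1 were the higher genes in both, with Col18a1 at 2-fold (adjusted p = 2e-17) and 1.93-fold (adjusted p = 8.5e-17). Among the lower genes, Col8a1 was at 13.8% of Malt1_V87R and 14.6% of Malt1_L88D, and Col12a1 at 26.5% and 26.8%. The low genes Col15a1 and Col11a2 were also lower in Malt1_PD, Col15a1 by 0.90 (adjusted p = 0.0038) against Malt1_V87R and by 0.97 (adjusted p = 0.0022) against Malt1_L88D. The calls of Col11a2 (adjusted p = 0.024 and 0.03) were lost without Malt1_PD replicate 1 or 2, without Malt1_V87R replicate 1, and without Malt1_L88D replicate 1 or 2 (adjusted p from 0.082 to 0.15).

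Between the 2 substitution mutants, Malt1_V87R and Malt1_L88D, edgeR called 0 of 25 members and 0% of all 14571 genes. At an unadjusted p under 0.05, 0 members and 852 genes passed, and DESeq2 and limma-voom also called 0 genes (591 and 893 at an unadjusted p under 0.05). Fitted on the 6 libraries alone, 25 genes were called, none of them a collagen gene. For the 16 members of at least 5 CPM the unadjusted 95% intervals of the difference lay between -0.29 and 0.31 on the log2 scale. They were built from the SE with the normal distribution, which makes them somewhat too narrow for so few libraries. For Col6a1 the interval was -0.06 to 0.09, for Col6a3 -0.13 to 0.02 and for Col8a1 -0.09 to 0.26. The lack of a call does not exclude differences within these bounds or somewhat beyond them.

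Genes that process and bind collagen were read from lists of 6 steps of its biology. Of 17 tested genes of chain hydroxylation and folding, 5 were higher and 6 lower in Malt1_PD and 6 and 7 in Malt1_WT, each against the vector, with 2 and 0 in Malt1_V87R and 3 and 0 in Malt1_L88D. Over all genes 22.8% were higher and 22.0% lower in Malt1_PD, 7.01% and 4.70% in Malt1_V87R, 8.96% and 8.43% in Malt1_L88D, and 27.2% and 27.7% in Malt1_WT. P3h2, a prolyl 3-hydroxylase of basement membrane collagen, averaged 64.2 ± 0.755 CPM in Malt1_PD, 35.5 ± 2.01 in Malt1_V87R, 34.3 ± 0.547 in Malt1_L88D and 47.6 ± 1.18 in Malt1_WT, against 24.3 ± 0.385 CPM with the vector. It was called in all 4 (adjusted p from 2.5e-18 to 2.9e-07). P4hb, the shared subunit of prolyl 4-hydroxylase, was 1.34-fold higher in Malt1_PD and 1.31-fold higher in Malt1_WT, and Crtap, a partner of prolyl 3-hydroxylase, was at 0.799 of its vector level in Malt1_PD and 0.699 in Malt1_WT. Serpinh1, the collagen chaperone HSP47, was called in Malt1_WT alone of the 4 (0.788 of the vector level, adjusted p = 4.4e-09), and it was higher in Malt1_PD than in Malt1_WT (1.21-fold, adjusted p = 1.5e-06).

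Of 8 tested genes of propeptide cleavage and cross-linking, 2 were higher and 4 lower in Malt1_PD, 0 and 3 in Malt1_V87R, 1 and 3 in Malt1_L88D, and 2 and 4 in Malt1_WT. For all genes the shares were 22.8% higher and 22.0% lower in Malt1_PD and 27.2% and 27.7% in Malt1_WT. They were 7.01% and 4.70% in Malt1_V87R and 8.96% and 8.43% in Malt1_L88D. Pcolce, which enhances removal of the procollagen propeptide, averaged 255 ± 14.8 CPM in Malt1_PD, 453 ± 10.7 in Malt1_V87R, 419 ± 9.75 in Malt1_L88D and 198 ± 7.53 in Malt1_WT, against 529 ± 23.3 CPM with the vector, and was called in each (adjusted p from 3.1e-21 to 0.00034). Its relative Pcolce2 averaged 14.6 CPM in Malt1_PD, 24.9 in Malt1_V87R, 26.5 in Malt1_L88D and 13.2 in Malt1_WT, against 33.2 CPM with the vector, and was also called in each. The lysyl oxidase-like enzyme Loxl2 was at 0.665 of the vector level in Malt1_PD and 0.683 in Malt1_WT, and Loxl3 at 0.452 in Malt1_PD and 0.392 in Malt1_WT, and neither was called in Malt1_V87R or Malt1_L88D.

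Among the 6 tested collagen receptor genes, 4 were higher and 1 lower in Malt1_PD and in Malt1_WT (all genes, 22.8% higher and 22.0% lower in Malt1_PD, 27.2% and 27.7% in Malt1_WT). Itga2, the alpha subunit of the collagen-binding integrin of epithelia and platelets, averaged 5.48 ± 0.766 CPM in Malt1_PD, 1.31 ± 0.505 in Malt1_V87R, 1.77 ± 0.384 in Malt1_L88D and 8.66 ± 1.13 in Malt1_WT, against 0.982 ± 0.328 CPM with the vector. Ddr1, a receptor tyrosine kinase for collagen, was the gene that fell, to 0.863 of the vector level in Malt1_PD and 0.809 in Malt1_WT, whereas its relative Ddr2 was 1.21-fold higher in Malt1_PD and 1.26-fold higher in Malt1_WT. Itgb1, the shared beta subunit of the collagen-binding integrins, was 1.11-fold higher in Malt1_PD and 1.12-fold higher in Malt1_WT. The counts of higher and lower genes were 2 and 1 in Malt1_V87R and 3 and 1 in Malt1_L88D. All genes had 7.01% higher and 4.70% lower in Malt1_V87R, and 8.96% and 8.43% in Malt1_L88D.

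Genes of other basement membrane proteins went both ways. Of 11 tested, 5 were higher and 2 lower in Malt1_PD, 3 and 1 in Malt1_V87R, 4 and 1 in Malt1_L88D, and 7 and 2 in Malt1_WT. For all genes the shares were 22.8% higher and 22.0% lower in Malt1_PD and 27.2% and 27.7% in Malt1_WT. They were 7.01% and 4.70% in Malt1_V87R and 8.96% and 8.43% in Malt1_L88D. The 2 lower genes were Hspg2 and Lamb2, named after their values were seen. Hspg2, the proteoglycan perlecan, averaged 733 ± 6.90 CPM in Malt1_PD and 709 ± 25.6 in Malt1_WT, against 821 ± 22.6 CPM with the vector, and Lamb2, another laminin beta chain, 23.5 ± 0.225 CPM in Malt1_PD and 20.3 ± 1.58 in Malt1_WT, against 31.4 ± 1.73 CPM with the vector. Lamc1 and Lamb1, the laminin gamma and beta chains, were 1.56-fold and 1.37-fold higher in Malt1_PD and 1.44-fold and 1.37-fold higher in Malt1_WT. Lama3, a laminin alpha chain of epithelia, was 2.87-fold higher in Malt1_PD and 4.77-fold higher in Malt1_WT, at no more than 6.02 CPM. Nid1, nidogen, which links laminin to type IV collagen, averaged 330.4 ± 13.6 CPM in Malt1_PD, 419.6 ± 6.72 in Malt1_V87R, 452 ± 11.8 in Malt1_L88D and 524 ± 30.7 in Malt1_WT, against 322 ± 15.3 CPM with the vector. It was not called in Malt1_PD against the vector (adjusted p = 0.53) and was lower there than in Malt1_WT (0.631-fold, adjusted p = 1.4e-12).

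Most genes of proteins that bind collagen fell in Malt1_PD and Malt1_WT. Of 7 tested, 0 were higher and 5 lower in Malt1_PD, 0 and 1 in Malt1_V87R, 0 and 2 in Malt1_L88D, and 1 and 5 in Malt1_WT. For all genes the shares were 22.8% higher and 22.0% lower in Malt1_PD and 27.2% and 27.7% in Malt1_WT. They were 7.01% and 4.70% in Malt1_V87R and 8.96% and 8.43% in Malt1_L88D. Sparc, a matricellular protein that binds type IV and fibrillar collagen, averaged 285 ± 15.1 CPM in Malt1_PD, 565 ± 4.52 in Malt1_V87R, 559 ± 12.9 in Malt1_L88D and 233 ± 3.29 in Malt1_WT, against 603 ± 7.90 CPM with the vector. Tgfbi, a secreted linker of collagen and cells, was at 0.507 of the vector level in Malt1_PD, 0.753 in Malt1_V87R, 0.769 in Malt1_L88D and 0.318 in Malt1_WT. Bgn, the proteoglycan biglycan, was at 0.439 in Malt1_PD and 0.347 in Malt1_WT, and Tnxb, a tenascin, at 0.722 in Malt1_PD and 0.72 in Malt1_WT.

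The 15 genes of TGF-beta signalling and collagen transcription split both ways, with 4 higher and 6 lower in Malt1_PD, 0 and 2 in Malt1_V87R, 1 and 1 in Malt1_L88D, and 6 and 4 in Malt1_WT. For all genes the shares were 22.8% higher and 22.0% lower in Malt1_PD and 27.2% and 27.7% in Malt1_WT. They were 7.01% and 4.70% in Malt1_V87R and 8.96% and 8.43% in Malt1_L88D. The ligand gene Tgfb1 was 1.52-fold higher in Malt1_PD and 1.39-fold higher in Malt1_WT, and Tgfb3 was at 0.562 of its vector level in Malt1_PD and 0.527 in Malt1_WT. Smad7, an inhibitor of the pathway, was higher by 0.32 in Malt1_PD and 0.45 in Malt1_WT on the log2 scale. These lists overlap in theme, their medians against the vector lay between -0.47 and 0.33, and none was tested as a list.

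Markers of other cell types were read beside these values. The 10 fibroblast markers summed to 336 ± 7.70 CPM in Malt1_PD, 288 ± 10.3 in Malt1_V87R, 287 ± 4.24 in Malt1_L88D and 297 ± 3.46 in Malt1_WT, against 305 ± 9.89 CPM with the vector. Nearly all of this was Pdgfra, Pdgfrb and Acta2, while 5 of the 10 stayed under 1 CPM in every group and Dpt had 0 counts. The 8 macrophage markers summed to 36.4 to 40.5 CPM in the Malt1_PD libraries, 15.4 to 18.9 in Malt1_V87R, 20.6 to 40.9 in Malt1_L88D, 29.3 to 36.5 in Malt1_WT and 18.6 to 19.6 CPM with the vector, with Ptprc, C1qa, C1qb and C1qc under 1 CPM. Most of these sums was Cd68 and Lyz2. Lyz2 averaged 14.3 CPM in Malt1_PD, 5.0 in Malt1_V87R, 13.7 in Malt1_L88D and 4.63 in Malt1_WT, against 5.66 CPM with the vector. Against the vector 5 of the 8 macrophage markers were called higher in Malt1_PD and 2 in Malt1_WT, where 22.8% and 27.2% of all genes were higher. The 6 endothelial markers summed to 23.1 CPM in Malt1_PD, 15.1 in Malt1_V87R, 16.0 in Malt1_L88D, 22.7 in Malt1_WT and 18.6 with the vector, most of it Pecam1 and Vwf. The 5 pericyte markers summed to 11.7 CPM in Malt1_PD, 4.09 in Malt1_V87R, 4.42 in Malt1_L88D, 10.1 in Malt1_WT and 5.98 with the vector. Nearly all of this was Cspg4 and Notch3, while Rgs5, Des and Kcnj8 stayed under 1 CPM in every group. Rgs5 had 0.168 CPM in Malt1_PD and 0.0652 in Malt1_WT, against 0.26 CPM with the vector. Of the pericyte markers 2 were called higher in Malt1_PD and 2 in Malt1_WT, and of the endothelial markers 1 in Malt1_PD and 2 in Malt1_WT. Of the fibroblast markers 1 was higher and 1 lower in Malt1_PD, and 2 and 2 in Malt1_WT. All genes had 22.8% higher and 22.0% lower in Malt1_PD, and 27.2% and 27.7% in Malt1_WT. The 6 epithelial markers summed to 122 ± 2.59 CPM in Malt1_PD, 98.1 ± 2.34 in Malt1_V87R, 103 ± 1.91 in Malt1_L88D and 96.5 ± 3.59 in Malt1_WT, against 127 ± 9.36 CPM with the vector. Of them 1 was called lower in Malt1_PD and 2 in Malt1_WT, where 22.0% and 27.7% of all genes were lower. Marker calls were counted in Malt1_PD and Malt1_WT only. The part of these cell types in the collagen differences was not tested.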

How the data were processed

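RNA was sequenced from 15 libraries, 3 in each of 5 groups, as stranded paired-end libraries per the labels' protocols. Per the submitters' processing notes, the authors' tools were STAR 2.7.3a (alignment), Trim Galore 0.6.0 and featureCounts 1.6.3, with build GRCm38.p6, and they deposited whole-number counts per gene. Which annotation was used, how strand was set and how multi-mapping reads were treated is not given in the sources used here. Malt1_PD was matched to its columns by elimination.

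From these counts, CPM were computed on library totals scaled by edgeR's trimmed mean of M-values. CPM per kb used the merged length of all annotated exons of a gene, over all its transcripts. Genes passing edgeR's filterByExpr (14571, of which 25 members) were fitted over all 15 libraries with edgeR 4.0.16 (glmQLFit and glmQLFTest, robust) in R 4.3.3, with Benjamini-Hochberg adjustment over all of them and a threshold of 0.05. Scripts were tested on simulated data. DESeq2 1.42.0, limma 3.58.1 and other alternatives are in the closing section. The members, gene lists and marker lists were chosen with earlier results of these data known. Named members are those of at least 5 CPM in a group, and named list genes are up to 4 per list with the smallest adjusted p in Malt1_WT against the vector. The values of 1 such gene are not reported here. Col25a1, Col9a3, Col1a2, Col2a1, Col15a1 and Col11a2 were named after their values were seen. P-values use n = 3 per group.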

Additional observations from a re-analysis of the deposited data

How the results depend on the processing

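Each count of collagen genes called was recomputed with other scaling, DESeq2, limma-voom, no filter, a replicate block, the 6 libraries compared alone, and each library left out. Of 146 counts outside the left-out libraries, 144 stayed within 1.5 times and 2 moved. The higher genes in Malt1_L88D against the vector were 3 with limma-voom, against 5, and those in Malt1_PD against Malt1_WT were 3 with only the 6 libraries compared, against 7. With 1 library left out, 7 of 135 counts moved. The higher genes in Malt1_L88D against the vector ranged from 2 to 4 and the lower from 2 to 3, and the lower genes in Malt1_PD against Malt1_WT from 1 to 4. The cause was not tested. Of 3204 values of single genes, 3087 stayed on their side of the threshold, 100 lost a call and 17 gained one. Among values called in the main or the other fit, 0 reversed direction. Where neither fit gave a call, changes of direction were not counted. Low counts limit the 9 tested genes under 5 CPM.

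Replicate numbers were not taken to pair the libraries, since the labels state no pairing. Whether same-numbered libraries share a batch was not settled by the correlations below. Correlations were taken on log CPM after each gene's group mean was subtracted. For same-numbered libraries they lay between -0.051 and 0.15, with 2 of 30 over 0.1. Among libraries of other groups, 10 of 15 libraries correlated best with their own number, a hint from the data and not from the design. The replicate block moved no count by over 1.5 times, but over all genes it raised the calls to 2146 from 1706 in Malt1_V87R and to 3032 from 2534 in Malt1_L88D, each against the vector. In Malt1_V87R against the vector it gave 3 higher and 4 lower, against 2 and 3, and 20 genes, against 19, over the 5 groups.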
